A study of Arabidopsis thaliana with 27 samples.

Results

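The genes described here are CHI (AT2G43570), AT2G44240, AT3G28510, LUP5 (AT1G66960) and AT1G44130, 5 of the 13350 genes that could be named on the array. They are given by name, with no measured threshold, and were picked with results of these arrays known. The contrast behind the choice is not recorded. It is taken here to be ozone against clean air in wild type at 2 d, where all 5 have large rises, so that contrast is given below as a description with no test. The mutant and 3 h results may also have been in view, so the tests on those arrays are not fully independent of the choice. The leaves came from Arabidopsis thaliana of 2 genotypes: the G-protein null double mutant gpa1-4/agb1-2, here the mutant, and its wild type Col-0. In the mutant the G protein's alpha subunit gene GPA1 and its beta subunit gene AGB1 are both disrupted, in every cell, and the labels give 1 allele combination, so a genotype difference rests on that line. Plants 4 to 5 weeks old were kept in ozone at 125 ppb, for 7 h of each day, or in clean air at 5 ppb, and mid-whorl leaves were taken at 3 h or at 2 d.

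The 27 arrays form 8 groups. At 3 h the mutant had 3 arrays in ozone and 3 in clean air, and the wild type likewise 3 and 3. At 2 d the mutant had 4 arrays in ozone and 3 in clean air, and the wild type 4 and 4. Each value is a probe set intensity, the brightness of the short probes for 1 transcript on an Affymetrix ATH1 array, taken to log2(intensity + 1). A difference of 1 on this scale is therefore near a doubling for bright probe sets and understates the change of dim ones. The labels call the replicates biological without saying which plants went into an array, and the number of arrays limits the precision. In whole leaves, a change in the share of a cell type and a change of RNA per cell cannot be told apart.

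Ozone enters leaves through the stomata and breaks down to reactive oxygen species in the cell wall space, a signal that resembles the oxidative burst of pathogen attack. Defence programmes that follow include salicylic acid signalling, enzymes that attack microbial walls, proteases and specialised metabolites. CHI encodes a putative chitinase, an enzyme class that cleaves the chitin of fungal walls. AT2G44240 encodes a neprosin-domain (DUF239) protein, a plant family of which few members have a known function. AT3G28510 encodes an AAA-ATPase related to the mitochondrial protein BCS1. LUP5 belongs to the oxidosqualene cyclases, which fold oxidosqualene into triterpenes, and AT1G44130 encodes a pepsin-type aspartyl protease.

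Array medians lay between 153.5 and 182 intensity units, arrays of 1 group correlated at 0.916 to 0.965 across probe sets, and no 2 arrays were identical. Leaf identity was checked on 3 of 7 listed mesophyll genes that could be named: RCA, LHCB4.1 and PSAN averaged 14.33, 14.32 and 13.25. The root-hair gene EXPA7 averaged 4.55 and the guard-cell gene FMA, the transcription factor FAMA, 7.37. No listed epidermis or phloem companion cell gene was among the named probe sets. GPA1 and AGB1 were not analysed here, so the genotype labels have no check of their own.

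All 5 genes had their highest mean in wild-type ozone at 2 d and their next highest in mutant ozone at 2 d. Single 3 h ozone arrays lay within the range of the 2 d ozone arrays for all 5 genes, and single 3 h clean-air arrays did so for every gene but AT1G44130. The separation at 2 d came with high ozone values and with clean-air means below those of 3 h. The exception was LUP5 in mutant clean air, at 5.1 at 2 d and 4.57 at 3 h. No clean-air difference between the times passed in the mutant. In the order of the 8 group means every pair of neighbours had overlapping arrays, for each of the 5 genes.

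CHI, the chitinase gene, read 13.14, 12.78, 11.87 and 12.8 in mutant ozone at 2 d, against 7.4, 10.78 and 9.06 in mutant clean air. Wild-type arrays of CHI at 2 d read 13.06, 13.39, 13.2 and 13.13 in ozone, against 9.61, 8.63, 7.69 and 7.91 in clean air. The lowest ozone array stood above the highest clean-air array in either genotype, and the wild-type ozone arrays lay within 0.33 of each other. At 3 h CHI read 10.79, 12.96 and 11.19 in mutant ozone, against 8.77, 12.77 and 8.44 in mutant clean air. The wild type at 3 h read 12.85, 13.53 and 9.66 in ozone, against 12.8, 10.16 and 12.27 in clean air. The CHI arrays overlapped at 3 h in either genotype: a clean-air array of each reached over 12, and the third wild-type ozone array was below all 3 wild-type clean-air arrays.

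AT2G44240, the neprosin-domain gene, read 10.07, 9.95, 5.3 and 6.04 in mutant ozone at 2 d, against 2.46, 2.83 and 2.35 in mutant clean air. Wild-type arrays of 2 d read 10.45, 11.92, 7.91 and 7.38 in ozone, against 3.87, 2.77, 4.23 and 4.99 in clean air. Arrays 1 and 2 of either ozone group were higher than arrays 3 and 4, a split of over 2 units that the other 4 genes did not show. At 3 h the gene read 2.93, 3.69 and 2.41 in mutant ozone, against 3.66, 7.88 and 2.68 in mutant clean air. Wild-type arrays of 3 h read 4.74, 8.08 and 5.67 in ozone, against 9.62, 5.36 and 6.9 in clean air. Ozone and clean air overlapped at 3 h, and the ozone mean was the lower one in either genotype, unlike at 2 d.

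AT3G28510, the AAA-ATPase gene, read 7.66, 9.33, 8.75 and 8.93 in mutant ozone at 2 d, against 0.68, 5.7 and 5.31 in mutant clean air. For wild type at 2 d the readings were 7.47, 8.49, 8.98 and 9.78 in ozone, against 4.65, 2.58, 4.31 and 2.17 in clean air. The groups did not overlap at 2 d. The clean-air intensities were dim, from 0.6 to 51.1 in the mutant and from 3.5 to 24.1 in wild type. The intensity of 0.6, on the first mutant array, gave the reading of 0.68. At 3 h AT3G28510 read 6.47, 9.32 and 5.37 in mutant ozone, against 3.98, 9.02 and 4 in mutant clean air. The 3 h wild-type readings were 9.18, 9.67 and 3.8 in ozone, against 8.82, 7.03 and 5.58 in clean air. These arrays overlapped in either genotype, and the values of 1 group spanned up to 5.88 units, in wild-type ozone.

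LUP5, the oxidosqualene cyclase gene, read 8.87, 8.84, 7.54 and 9.11 in mutant ozone at 2 d, against 6.05, 5.11 and 4.14 in mutant clean air. The wild type at 2 d read 9.26, 9.81, 8.39 and 8.66 in ozone, against 6.27, 5.97, 4.88 and 3.04 in clean air. Every ozone array of 2 d was above every clean-air array of 2 d, across genotypes too. At 3 h LUP5 read 5.1, 7.24 and 6.08 in mutant ozone, against 3.25, 7.35 and 3.1 in mutant clean air. Its wild-type values at 3 h were 8.06, 8.46 and 3.78 in ozone, against 7.92, 5.82 and 6.56 in clean air. The highest mutant clean-air array exceeded all mutant ozone arrays at 3 h, and the third wild-type ozone array was below all wild-type clean-air arrays.

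AT1G44130, the aspartyl protease gene, read 7.52, 7.46, 7.57 and 8.08 in mutant ozone at 2 d, against 2.46, 5.36 and 4.15 in mutant clean air. Its wild-type values at 2 d were 7.28, 8.12, 8.2 and 8.51 in ozone, against 5.68, 2.38, 4.26 and 4.83 in clean air. The ozone arrays were close together and clear of the clean-air arrays in either genotype. At 3 h it read 6.77, 8.4 and 6.47 in mutant ozone, against 4.95, 6.85 and 5.61 in mutant clean air. For wild type at 3 h the readings were 7.53, 8.1 and 5.28 in ozone, against 6.93, 5.74 and 3.86 in clean air. The ozone mean was higher at 3 h in either genotype, with overlapping arrays.

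**Figure D1:**
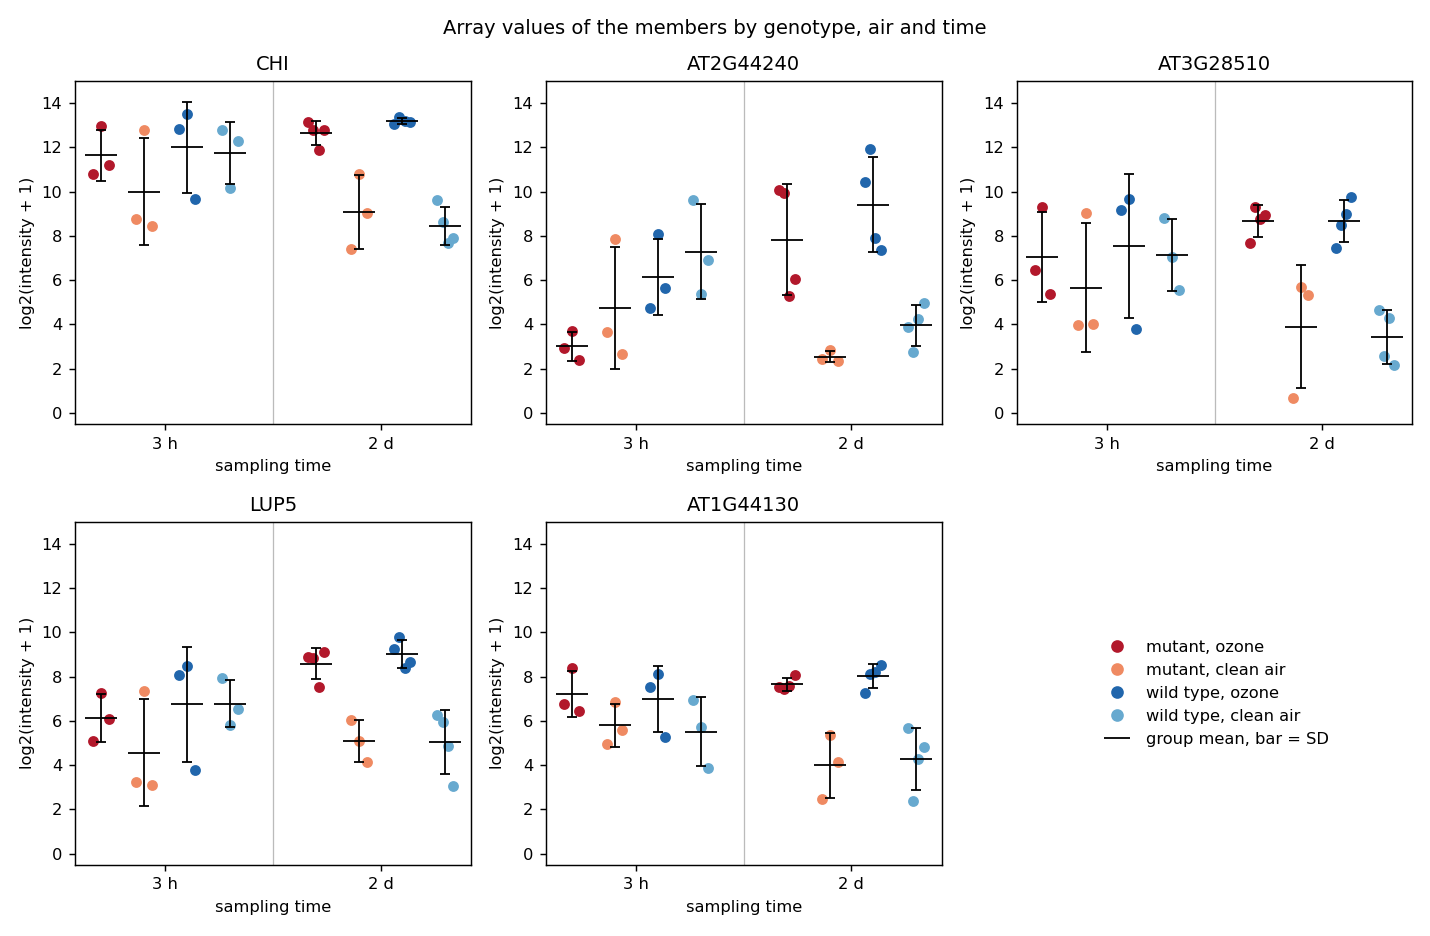
Log2(intensity + 1) of each gene (vertical axis) on each array at 3 h and 2 d; points are arrays, coloured by genotype and air, with the group mean and SD as black bars. At 2 d the ozone points lie above the clean-air points of the same genotype for all 5 genes, while at 3 h the colours overlap; CHI in wild-type ozone at 2 d spans 0.33 units.

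Ozone against clean air in the mutant at 2 d shares no array with the wild-type contrast taken to be behind the choice. All 5 genes were higher in ozone there, AT2G44240 by 5.29 ± 1.35 (SE), AT3G28510 by 4.77 ± 1.44, AT1G44130 by 3.67 ± 0.819, CHI by 3.56 ± 0.988 and LUP5 by 3.49 ± 1.05. As ratios of intensity + 1 these were 39.2-fold, 27.3-fold, 12.7-fold, 11.8-fold and 11.3-fold. CHI averaged 12.65 ± 0.546 in mutant ozone (SD, n = 4) and 9.08 ± 1.69 in mutant clean air (SD, n = 3), and AT1G44130 7.66 ± 0.288 and 3.99 ± 1.46. The sizes depend on dim clean-air values, down to an intensity of 0.6 for AT3G28510: with a pseudocount of 16 in place of 1, the differences were 3.66 for AT2G44240, 3.51 for CHI, 3.43 for AT3G28510, 2.99 for LUP5 and 2.7 for AT1G44130. Leaving out the first mutant clean-air array of 2 d, where AT3G28510, CHI and AT1G44130 were lowest, gave 3.16 for AT3G28510 and 2.72 for CHI.

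None of the 5 passed the threshold of an adjusted p under 0.05 in limma, the linear model fitted over all probe sets, for this mutant contrast. The adjusted p was 0.0615 for AT1G44130, 0.105 for AT2G44240, 0.126 for CHI and 0.158 for AT3G28510 and LUP5. All 5 had an unadjusted limma p under 0.05. Over all probe sets 0.189% passed the adjusted threshold in this contrast and 12.3% the unadjusted one. The mutant's 4 ozone arrays lay above its 3 clean-air arrays for 5 of 5 genes, against 6.26% of all probe sets. The median difference of the 5 was 3.67, against -0.01 over all probe sets. Leaving out the third mutant ozone array put AT2G44240 at 6.14 with an adjusted p of 0.0439 in limma. Other settings put 0 to 3 of the 5 past the threshold, as listed at the end. Between 4 and 3 arrays a 2-sided exact permutation test can go no lower than p = 0.0571, so it cannot pass for a single gene.

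In wild type at 2 d, the contrast taken to be behind the choice of genes, AT2G44240 stood 5.45 ± 1.25 higher in ozone, AT3G28510 5.25 ± 1.33, CHI 4.73 ± 0.915, LUP5 3.99 ± 0.976 and AT1G44130 3.74 ± 0.759. The arrays did not overlap for any of the 5, where 5.34% of all probe sets were higher without overlap, and nothing is read from that count. With a pseudocount of 16 in place of 1 the wild-type differences of AT3G28510 and AT1G44130 became 3.96 and 2.88.

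The ozone differences in the 2 genotypes at 2 d can be set side by side but not tested, because the wild-type values are taken to have been chosen for their size. The mutant's ozone difference minus the wild type's was -1.17 ± 1.35 for CHI, -0.49 ± 1.44 for LUP5, -0.48 ± 1.96 for AT3G28510, -0.16 ± 1.84 for AT2G44240 and -0.07 ± 1.12 for AT1G44130. All 5 differences were smaller than their standard error. That did not hold under every setting. Without the first mutant clean-air array of 2 d the value was -2.01 ± 1.39 for CHI and -2.09 ± 1.93 for AT3G28510, both larger than their standard error. Under the settings other than leaving out an array, the CHI value ran from -1.69 to -1.12. AT2G44240 had the lower mutant mean in either air, with 7.84 in mutant ozone against 9.41 in wild-type ozone and 2.55 in mutant clean air against 3.96 in wild-type clean air. The ranges of the genotypes overlapped for all 5 genes at 2 d, while 0.818% of all probe sets were lower in the mutant without overlap in ozone and 2.13% in clean air.

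**Figure D2:**
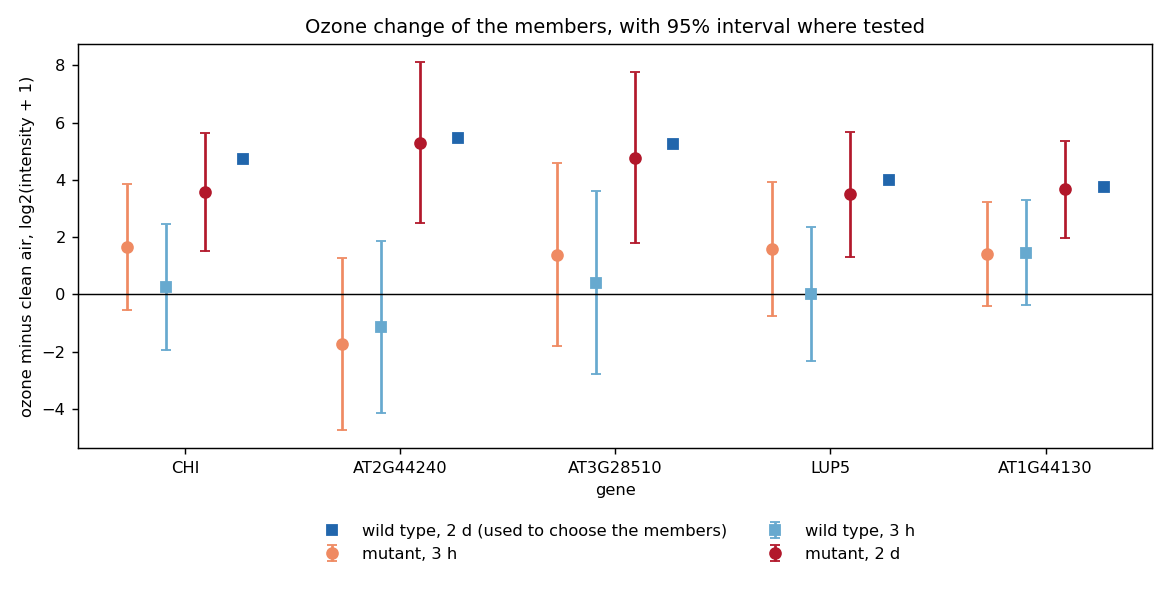
Difference between ozone and clean air in log2(intensity + 1) (vertical axis) for each gene in each genotype and at each time, with 95% intervals; wild type at 2 d, taken to be the contrast behind the choice, is shown without an interval. The mutant intervals at 2 d lie above 0, from 1.31 at the low end for LUP5 to 8.1 at the high end for AT2G44240, and all 10 intervals at 3 h include 0.

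At 3 h no ozone difference passed in either genotype, for any of the 5 genes. In the mutant the differences were 1.65 ± 1.06 for CHI, 1.57 ± 1.13 for LUP5, 1.41 ± 0.876 for AT1G44130, 1.38 ± 1.54 for AT3G28510 and -1.73 ± 1.44 for AT2G44240. Their adjusted p in limma lay between 0.655 and 0.838, and 0 of 5 were under 0.05 unadjusted. In wild type the differences were 1.46 ± 0.876 for AT1G44130, 0.41 ± 1.54 for AT3G28510, 0.27 ± 1.06 for CHI, 0 ± 1.13 for LUP5 and -1.13 ± 1.44 for AT2G44240. The adjusted p in limma lay between 0.453 and 1, and 0 of 5 were under 0.05 unadjusted. Over all probe sets 0.651% passed in the mutant and 1.5% in wild type, and 10.2% and 15.4% were under 0.05 unadjusted. The arrays of none of the 5 genes were higher in ozone without overlap at 3 h, against 8.83% of all probe sets in the mutant and 9.43% in wild type.

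The intervals at 3 h were wide. The 95% interval of CHI ran from -0.54 to 3.85 in the mutant and from -1.93 to 2.46 in wild type. That of AT1G44130 ran from -0.41 to 3.23 in the mutant and from -0.36 to 3.28 in wild type. Leaving out the second mutant clean-air array, which was high for all 5 genes, raised the mutant difference of CHI to 3.04, that of AT3G28510 to 3.06 and that of LUP5 to 2.96. Leaving out the third wild-type ozone array, which was low for all 5, raised the wild-type difference of CHI to 1.44, that of AT3G28510 to 2.28 and that of LUP5 to 1.49. None of these passed.

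In the mutant at 3 h, same-numbered ozone and clean-air arrays had correlated deviations from their group means in 3 of 3 pairs, at r = 0.22 to 0.39 across probe sets. Deviations cancel out within a group, so the 3 pairs are not independent. Differently numbered arrays were not compared, so the numbers are not shown to pair the arrays. Within the pairs, ozone minus clean air was 2.03, 0.19 and 2.75 for CHI, 2.49, 0.3 and 1.37 for AT3G28510, and 1.82, 1.55 and 0.86 for AT1G44130. These 3 genes were higher in ozone in every pair. LUP5 gave 1.86, -0.11 and 2.97, and AT2G44240 was lower in ozone in every pair, at -0.73, -4.19 and -0.27. A limma fit of these 6 arrays alone with the replicate number as a block, chosen after seeing the data, gave CHI 1.65 ± 0.559, AT3G28510 1.38 ± 0.472 and AT1G44130 1.41 ± 0.259, and 0 of 5 passed (adjusted p 0.192 to 0.491). Unadjusted, 3 of 5 were under 0.05 in that fit, which has 2 residual degrees of freedom and called 0 of all probe sets. The share of all probe sets under 0.05 unadjusted in that fit was not counted, nor the share higher in ozone in every pair. Nothing is therefore read from these counts of genes.

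Whether the ozone difference was larger at 2 d than at 3 h was tested within the mutant. AT2G44240 gave 7.02 ± 1.98 (95% interval 2.92 to 11.13), AT3G28510 3.39 ± 2.11, AT1G44130 2.26 ± 1.2, LUP5 1.92 ± 1.54 and CHI 1.91 ± 1.45. Without the second mutant clean-air array of 3 h the values were 1.71 for AT3G28510, 0.53 for LUP5 and 0.52 for CHI, and without the first of 2 d AT3G28510 gave 1.78, CHI 1.07 and AT1G44130 1.49. All 5 were above 0 and 0 passed in limma, with an adjusted p of 0.154 for AT2G44240 (unadjusted p = 0.00182) and of 0.478 to 0.691 for the others. Unadjusted, AT2G44240 was the 1 of 5 under 0.05. In this contrast 0.0352% of all probe sets passed, and 11.7% were under 0.05 unadjusted. The same quantity in wild type, which uses the wild-type arrays of 2 d, was 6.58 ± 1.91 for AT2G44240, 4.84 ± 2.04 for AT3G28510, 4.47 ± 1.4 for CHI, 3.99 ± 1.49 for LUP5 and 2.28 ± 1.16 for AT1G44130.

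The clean-air levels of the genes were lower at 2 d than at 3 h in wild type. As 2 d minus 3 h, CHI stood at -3.29 ± 0.988, AT3G28510 at -3.72 ± 1.44 and AT2G44240 at -3.33 ± 1.35, without overlap between the 4 arrays of 2 d and the 3 of 3 h. LUP5 and AT1G44130 stood at -1.73 ± 1.05 and -1.22 ± 0.819, with overlap. Thus 3 of 5 were lower without overlap, against 13.9% of all probe sets. These differences use the wild-type arrays of 2 d and were not tested. In mutant clean air, where they could be, AT2G44240 stood at -2.19 ± 1.44, AT1G44130 at -1.81 ± 0.876, AT3G28510 at -1.77 ± 1.54, CHI at -0.91 ± 1.06 and LUP5 at 0.53 ± 1.13 (2 d minus 3 h). None of the 5 passed in limma or was under 0.05 unadjusted (adjusted p 0.288 to 0.878), while 5.61% of all probe sets passed and 17.4% were under 0.05 unadjusted.

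Within ozone the 2 times were closer for some of the genes. CHI was 1 ± 0.988 higher at 2 d than at 3 h in the mutant and 1.18 ± 0.988 higher in wild type, and AT1G44130 0.44 ± 0.819 and 1.06 ± 0.819 higher. AT2G44240 was 4.83 ± 1.35 higher in the mutant and 3.25 ± 1.35 higher in wild type, and LUP5 2.45 ± 1.05 and 2.26 ± 1.05 higher. AT3G28510 was 1.62 ± 1.44 higher in the mutant and 1.13 ± 1.44 higher in wild type. The 2 d arrays lay clear of the 3 h arrays only for AT2G44240 and LUP5 in the mutant, that is for 2 of 5 genes against 10.6% of all probe sets, and for none of the 5 in wild type, against 7.23%. These differences were not tested.

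Mutant and wild type were compared on the 3 h arrays. In ozone AT2G44240 differed by -3.16 ± 1.44 (mutant minus wild type), at 3.01 ± 0.645 in the mutant against 6.16 ± 1.72 in wild type (SD, n = 3 each), and its arrays did not overlap. That made 1 of 5 genes lower without overlap, against 6.65% of all probe sets, and the difference did not pass in limma (adjusted p = 0.88, unadjusted p = 0.04). The other 4 lay between -0.62 ± 1.13 for LUP5 and 0.24 ± 0.876 for AT1G44130 in ozone. In clean air LUP5, AT2G44240, CHI and AT3G28510 stood at -2.2 ± 1.13, -2.56 ± 1.44, -1.75 ± 1.06 and -1.48 ± 1.54 in the mutant relative to wild type, and AT1G44130 at 0.29 ± 0.876. None of these passed in limma (adjusted p = 1 for each) or was under 0.05 unadjusted. Of all probe sets 0.0132% passed for genotype in clean air and 0.0176% in ozone, and 3.8% and 5.59% were under 0.05 unadjusted. The mutant's ozone difference at 3 h minus the wild type's ran from -0.6 ± 2.04 for AT2G44240 to 1.57 ± 1.59 for LUP5 with 0 of 5 past the threshold or under 0.05 unadjusted in limma, and 0% of all probe sets passed (2.76% unadjusted).

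The 5 genes scattered more between arrays of 1 group than most probe sets. Their within-group SD was 2 for AT3G28510, 1.88 for AT2G44240, 1.46 for LUP5, 1.37 for CHI and 1.13 for AT1G44130, against a median of 0.419 over all probe sets. Between 94.1% and 99.9% of probe sets had a smaller one. The scatter of the 5 was uneven over the groups. In mutant ozone at 2 d the median SD of the 5 genes was 0.712, against 1.46 in mutant clean air at 2 d. In wild type at 2 d it was 0.633 in ozone and 1.23 in clean air, and at 3 h it was 1.07 in mutant ozone, 2.41 in mutant clean air, 2.06 in wild-type ozone and 1.55 in wild-type clean air.

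The genes tended to be high or low on the same arrays. After the group means were taken out, all 10 pairs of genes correlated above 0 over the 27 arrays, with r from 0.29, for AT2G44240 with AT1G44130, to 0.83, for AT3G28510 with AT1G44130. CHI correlated at 0.81 with AT3G28510, 0.78 with LUP5, 0.64 with AT1G44130 and 0.53 with AT2G44240. The points share arrays, RNA extracts and the scaling of each array, so these values describe the data and carry no test. On 10 of 27 arrays all 5 genes were on the same side of their group means. Most of these were 3 h arrays, every mutant array of 3 h among them. The only 2 d array among them was the second of mutant clean air. The second mutant clean-air array at 3 h was on average 2.62 above its group, the second mutant ozone array at 3 h 1.31 above, and the third wild-type ozone array at 3 h 2.26 below.

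**Figure D3:**
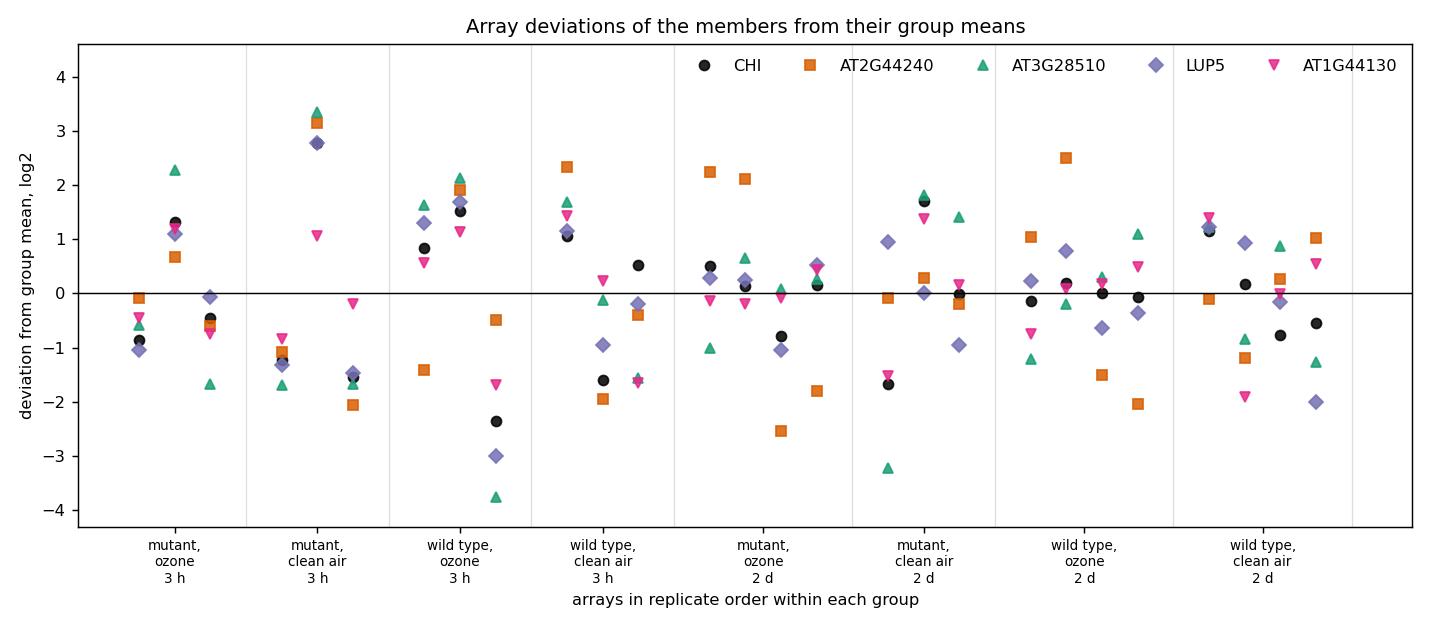
Deviation of each gene from its group mean in log2 units (vertical axis) on each of the 27 arrays (horizontal axis), in replicate order within each group. At 3 h the symbols of the 5 genes cluster on most arrays, as on the second mutant clean-air array (mean deviation 2.62) and the third wild-type ozone array (mean deviation -2.26). At 2 d AT2G44240 departs from the others on the ozone arrays. LUP5 departs on the first mutant clean-air array of 2 d (0.95, against -3.22 for AT3G28510).

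The relatives of these genes were listed by locus and counted without the 5 genes. Of 14 chitinase genes measured, of 23 listed, AT2G43620 rose in wild type at 2 d by 2.16 ± 0.596 (limma adjusted p = 0.0481), to 10.35 in ozone against 8.19 in clean air, and stood at 1.03 ± 0.644 in the mutant. With quantile normalization its wild-type call was lost (limma adjusted p = 0.0573). It lies in the run of chitinase genes next to CHI. The other 13 did not pass at 2 d in wild type and none of the 14 passed in the mutant, where 1 was under 0.05 unadjusted in limma, against 12.3% of all probe sets. That gene, AT2G43590, was lower in ozone in the mutant, at -1.23 ± 0.547. The list's median was -0.27 in the mutant and 0.03 in wild type, against -0.01 and -0.09 over all probe sets. Of all probe sets 1.63% rose and 1.82% fell in wild type at 2 d. The chitinase gene AT1G02360 passed at 3 h and not at 2 d. It rose at 3 h by 1.84 ± 0.354 in the mutant and 2.58 ± 0.354 in wild type (limma adjusted p = 0.0198 and 0.00114). At 2 d it stood at -0.23 ± 0.331 and 0.15 ± 0.306. AT2G43620 had much the same differences at 3 h as at 2 d, 0.95 ± 0.689 in the mutant and 2.06 ± 0.689 in wild type, and did not pass at 3 h. AT3G47540 and AT4G01700 stood at 0.32 ± 0.324 and 0.01 ± 0.446 in the mutant at 2 d and at 0.75 ± 0.3 and 0.57 ± 0.413 in wild type. At 3 h they stood at 1.4 ± 0.347 and 1.37 ± 0.477 in the mutant and at 1.14 ± 0.347 and 1.24 ± 0.477 in wild type, without passing. Of the 14, 12 were above 0 in the mutant at 3 h and 8 in wild type. The list's medians there were 0.72 and 0.38, against -0.04 and -0.01 over all probe sets.

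Among the relatives of AT3G28510, most differences were above 0 at 2 d and at 3 h. Of 13 measured BCS1-like AAA-ATPase genes, of 21 listed, 2 rose in wild type at 2 d and 0 in the mutant in limma, against 1.63% of all probe sets rising in wild type and 0.189% passing in the mutant. At 2 d the difference was above 0 for 12 of 13 in each genotype. AT3G28540, a few loci from AT3G28510, rose by 2.73 ± 0.549 in wild type (adjusted p = 0.0159 in limma), to 11 in ozone against 8.27 in clean air, and stood at 2.42 ± 0.593 in the mutant. AT5G17760 rose by 2.41 ± 0.645 in wild type and stood at 1.86 ± 0.696 in the mutant. The median at 2 d was 0.72 in the mutant and 0.8 in wild type, against -0.01 and -0.09 over all probe sets. In the mutant at 2 d 3 of 13 were under 0.05 unadjusted, against 12.3% of all probe sets. At 3 h the difference was above 0 for 11 of 13 in the mutant and 8 of 13 in wild type. The medians there were 0.83 and 0.24, against -0.04 and -0.01 over all probe sets. At 3 h 0 of 13 passed in either genotype in limma. Unadjusted, 4 were under 0.05 in the mutant and 2 in wild type, against 10.2% and 15.4% of all probe sets. The differences at 3 h ran from -0.91 to 3.42 in the mutant and from -0.48 to 3.57 in wild type. AT3G28580, named after its values were seen, was the highest, at 3.42 ± 1.18 and 3.57 ± 1.18. At 2 d AT3G28580 stood at 2.45 ± 1.11 in the mutant and 2.44 ± 1.03 in wild type. At 3 h AT2G46620 stood at 1.43 ± 0.434 in the mutant and 1.64 ± 0.434 in wild type, and AT1G43910 at 1.63 ± 0.674 and 0.92 ± 0.674. With a pseudocount of 16 and with quantile normalization AT2G46620 did pass in wild type at 3 h (limma adjusted p = 0.0459 and 0.0464).

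The neprosin-domain and aspartyl protease families, to which AT2G44240 and AT1G44130 belong, had medians below 0 at 2 d. Of 16 measured neprosin-domain genes, of 25 listed, 0 passed at 2 d or at 3 h in limma, and 3 in the mutant and 3 in wild type were under 0.05 unadjusted at 2 d, against 12.3% and 20.8% of all probe sets. Their medians at 2 d were -0.4 in the mutant and -0.52 in wild type. AT2G44210, near AT2G44240 on the chromosome, stood at -0.68 ± 0.314 in the mutant and -0.75 ± 0.291 in wild type. AT1G55360, AT5G18460 and AT3G13510 stood at -1.1 ± 0.37, -1.44 ± 0.444 and -0.55 ± 0.386 in wild type. Of 22 measured aspartyl protease genes, of 30 listed, AT1G62290 fell by 1.77 ± 0.398 and AT4G33490 by 1 ± 0.264 in wild type at 2 d (limma adjusted p = 0.022 and 0.0407), and 0 rose. The median of this family was -0.21 in the mutant and -0.43 in wild type. In the mutant 0 of 22 passed in limma and 6 were under 0.05 unadjusted, against 12.3% of all probe sets. There AT1G62290 stood at -1.44 ± 0.43 and AT4G33490 at -0.35 ± 0.286. APA1 and AT3G52500 stood at 0.19 ± 0.186 and -0.19 ± 0.271 in the mutant and at 0.42 ± 0.172 and -0.16 ± 0.251 in wild type. At 3 h 1 of 22 rose, in wild type: AT1G49050, named after its values were seen, by 1.15 ± 0.284 (limma adjusted p = 0.0432), against 1.12 ± 0.284 in the mutant, where it did not pass. None of the 12 other oxidosqualene cyclases listed beside LUP5 was among the named probe sets.

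**Figure D4:**
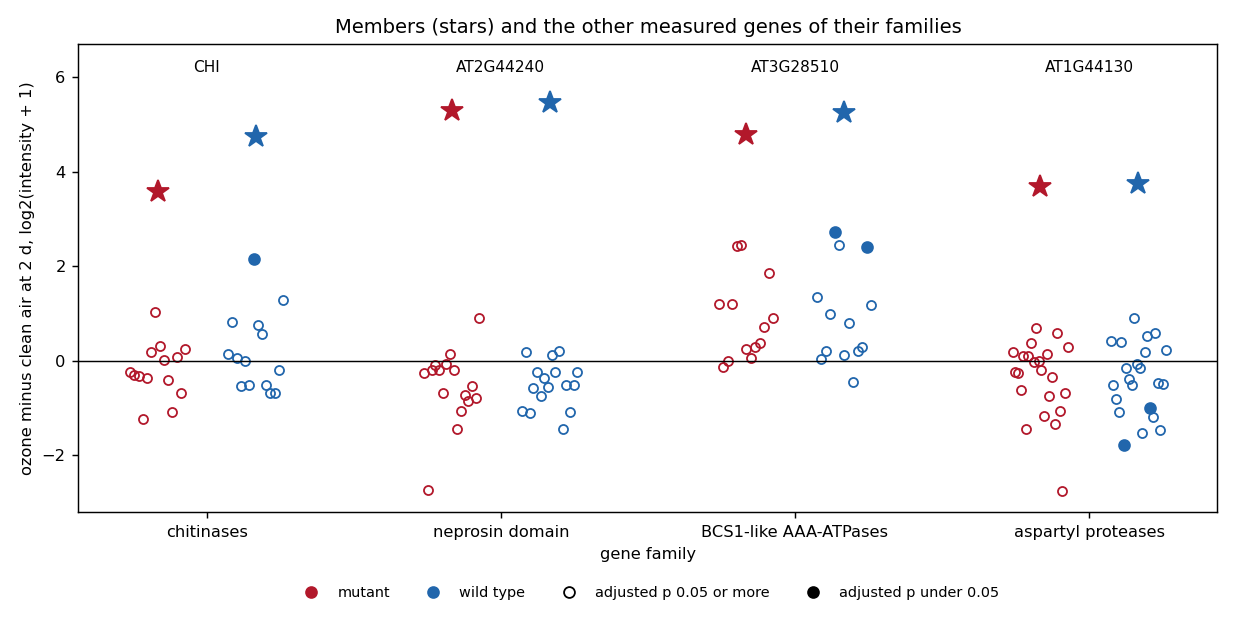
Difference between ozone and clean air at 2 d in log2(intensity + 1) (vertical axis) for the measured genes of 4 families, mutant left and wild type right in each; stars are CHI, AT2G44240, AT3G28510 and AT1G44130, filled circles passed the adjusted threshold and open circles did not. The stars stand above all other genes of their families, and 5 relatives passed, all in wild type: 3 higher and 2 lower. The starred genes are taken to have been chosen for large wild-type rises at 2 d. Nothing is therefore read from the place of the wild-type stars.

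Few genes of the wider defence and senescence programmes could be named. Of 29 listed genes of salicylic acid signalling and systemic resistance 4 were measured, and 0 passed at 2 d or 3 h in limma. Unadjusted, 0 and 3 of the 4 were under 0.05 in the mutant at 2 d and 3 h, and 3 and 1 in wild type. Over all probe sets these shares were 12.3% and 10.2% in the mutant, and 20.8% and 15.4% in wild type. Their median at 2 d was 0.61 in the mutant and 1.49 in wild type. UGT76B1, a glucosyltransferase of immune signalling, stood at 2.88 ± 1.76 in the mutant and 5.6 ± 1.63 in wild type at 2 d (adjusted p = 0.542 and 0.0572 in limma), and at 5.1 ± 1.88 and 3.41 ± 1.88 at 3 h. SAG101, a partner of EDS1 in immune signalling, stood at 0.57 ± 0.576 in the mutant and 1.53 ± 0.533 in wild type at 2 d. AT5G52810, the SARD4 gene of pipecolic acid synthesis, stood at 0.65 ± 0.512 and 1.46 ± 0.474, and the glutaredoxin gene GRX480 at 0.44 ± 0.73 and 0.95 ± 0.676. At 3 h GRX480 stood at 2.49 ± 0.781 in the mutant and 2.3 ± 0.781 in wild type. The median of the 4 genes at 3 h was 1.99 in the mutant and 1.58 in wild type. No gene of the camalexin list was among the named probe sets. Of 17 listed senescence genes 3 were measured. The transcription factor genes WRKY6 and WRKY53 passed at 3 h and not at 2 d, WRKY6 rising by 3.17 ± 0.686 in the mutant and 4.04 ± 0.686 in wild type at 3 h and standing at 0.73 ± 0.641 and 0.74 ± 0.594 at 2 d. WRKY53 rose by 2.48 ± 0.56 in the mutant and 2.7 ± 0.56 in wild type at 3 h, and its mutant call was lost with centred arrays (limma adjusted p = 0.0656). At 2 d WRKY53 stood at 1.79 ± 0.523 in the mutant and 1.52 ± 0.485 in wild type (limma adjusted p = 0.146 and 0.079). SAG29, a sugar transporter gene, stood at 0.1 ± 0.619 in the mutant and 1.3 ± 0.573 in wild type at 2 d.

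The 13508 other probe sets of 1 gene were ranked by their correlation, over the 27 arrays, with the mean of the 5 genes after each was standardized. The closest was AT1G55210, a dirigent-like gene, at r = 0.95, then RING1, which encodes a ubiquitin ligase, at 0.94, SAL2, an inositol phosphatase gene, AT4G29520, the C2-domain gene AT4G00700 and the glutamate receptor-like gene GLR1.4, each at 0.93. The median r over all these probe sets was -0.05, and 11 were over 0.9. The single gene closest to CHI was RING1 at 0.95, to LUP5 GLR1.4 at 0.95, to AT3G28510 and AT1G44130 the same gene, AT3G60540, at 0.92 and 0.9, and to AT2G44240 AT5G48290 at 0.84. These genes were picked for likeness on the same arrays, so their values describe the pattern and add no support to it.

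AT1G55210 and RING1 lay close together within each group at 2 d. AT1G55210 averaged 12.15 ± 0.308 in mutant ozone at 2 d (SD, n = 4) against 9.82 ± 0.217 in mutant clean air (SD, n = 3), and 12.62 ± 0.236 in wild-type ozone against 9.89 ± 0.382 in wild-type clean air (SD, n = 4 each). RING1 averaged 13.4 ± 0.146 in mutant ozone against 11.45 ± 0.27 in mutant clean air, and 13.26 ± 0.195 in wild-type ozone against 11.1 ± 0.477 in wild-type clean air. In the mutant at 2 d the difference was 2.34 ± 0.411 for AT1G55210, 1.95 ± 0.387 for RING1 and 3.44 ± 0.693 for SAL2, and these 3 rose there by limma's adjusted p (0.0264, 0.0403 and 0.0403). All 3 differences were smaller than that of CHI in the same contrast, and their standard errors were smaller too. At 3 h none of the 6 genes passed in limma in either genotype, with differences from 0.18 ± 0.439 to 1.79 ± 0.885 in the mutant and from 0.17 ± 0.499 to 0.83 ± 0.885 in wild type.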

How the data were processed

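The authors deposited 1 table of probe set intensity values, 22746 probe sets on 27 arrays. The submitters' processing notes list Affymetrix Expression Console and RMA without versions. The deposited intensity values are linear, whereas RMA usually gives log2, so their background correction and scaling are not known, and no detection calls were used. Values were taken to log2 with a pseudocount of 1, with no further normalization or filter. Means of the 8 groups were modelled together in limma 3.58.1 (R 4.3.3), with 19 residual and 2.53 prior degrees of freedom. Each contrast had 2-sided p-values, adjusted over all probe sets by the Benjamini-Hochberg method, with a threshold of 0.05.

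Probe sets were named by GEO's platform annotation and brought up to date with the TAIR10.1 gene table: 13513 probe sets had 1 gene, 503 several and 8730 were not listed. The probe set with the highest mean stood for a gene that had more than 1. The genes described, the lists and the tests were chosen with earlier results of these data known. Up to 4 genes per list were named, those past the threshold at 2 d first and then those of highest mean, besides the 6 genes closest in pattern and the closest to each of the 5. The gene table has no descriptions, so families were defined by locus. Alternatives were a pseudocount of 16, median centring, quantile normalization, a floor of 6 on the mean log2 value, array weights, separate fits per time point, a replicate block, leaving out each array and, chosen after seeing the data, a fit of the mutant 3 h arrays alone with the replicate number as a block. The last was added because same-numbered arrays of those groups deviated together in 3 of 3 pairs, which does not show that the numbers pair the arrays.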

Additional observations from a re-analysis of the deposited data

How the results depend on the processing

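All 5 genes stayed higher in ozone in the mutant at 2 d under every alternative, and the number past the adjusted threshold in limma, 0 as reported, moved between 0 and 3. It was 1 with a pseudocount of 16 (AT1G44130, 2.7, adjusted p = 0.0408), 1 with a mean log2 of at least 6, which kept 4 of the genes and 15203 probe sets (AT1G44130, 3.67, adjusted p = 0.0308), and 2 with array weights (AT2G44240, 5.55, adjusted p = 0.0363, and LUP5, 3.45, adjusted p = 0.0495). Separate limma fits per time point gave 3 (CHI, 3.56, adjusted p = 0.0226, LUP5, 3.49, adjusted p = 0.0461, and AT1G44130, 3.67, adjusted p = 0.0371). Leaving out 1 array gave 0 to 1, with AT2G44240 between 4.55 and 6.14. Over all probe sets the calls in this contrast numbered 43 as reported, 76 with pseudocount 16, 18 with centring, 15 with quantile normalization, 424 with array weights, 150 with the replicate block and 118 with the floor of 6. The cause of these shifts was not tested. Calls over all probe sets were not counted for the separate fits per time point or without single arrays. Nothing is therefore read from the counts of genes under those settings. Same-numbered arrays deviated together in 22 of 39 pairs (r over 0.1, range -0.24 to 0.55). Every pair did so in 2 of 12 comparisons of groups: ozone against clean air in the mutant at 3 h, and mutant against wild type in ozone at 2 d. In the mutant at 2 d 0 of 3 pairs did. Differently numbered arrays were not compared, so these counts do not show that the numbers pair the arrays. The replicate block over all arrays put 1 of the 5 genes past the threshold in the mutant at 2 d (AT1G44130, 3.51, adjusted p = 0.0474) and raised the calls at 3 h to 407 in the mutant, against 148, and 890 in wild type, against 342. In the mutant 3 h arrays alone the block gave 0 calls, and 0 without it. Array weights raised the calls at 3 h to 844 and 3329. The median wild-type difference of the 5 at 2 d, 4.73, was 3.96 with pseudocount 16. Differences near 0 changed sign. With pseudocount 16, LUP5 in wild type at 3 h was 0.19 and the interaction of AT1G44130 at 3 h 0.03. With array weights, LUP5 in wild type at 3 h was 0.94, AT1G44130 between genotypes at 3 h -0.51 in ozone and -0.24 in clean air, the interaction of AT2G44240 1.18, and CHI at 2 d minus 3 h in mutant clean air 0.56. In the mutant at 2 d AT4G01700 was -0.05 with centring and -0.02 with quantile normalization, AT2G46620 -0.06 and -0.04. APA1 at 3 h was 0.03 in the mutant and 0.06 in wild type with quantile normalization. AT2G43620 in wild type at 2 d missed the threshold with quantile normalization (2.13, adjusted p = 0.0573), as WRKY53 in the mutant at 3 h did with centring (2.44, adjusted p = 0.0656). Calls were also gained at 3 h. AT2G46620 passed in wild type with pseudocount 16 (1.6, limma adjusted p = 0.0459) and with quantile normalization (1.64, limma adjusted p = 0.0464). AT3G47540 passed in the mutant with pseudocount 16 (1.39, limma adjusted p = 0.0472). Without 1 array at a time, the wild-type ozone difference at 3 h ran from -0.53 to 1.44 for CHI, -2.1 to 0.03 for AT2G44240, -0.66 to 2.28 for AT3G28510 and -0.85 to 1.49 for LUP5. The genotype difference in ozone at 3 h ran from -1.54 to 0.4 for CHI, -2.37 to 0.56 for AT3G28510, -2.12 to 0.22 for LUP5 and -0.6 to 0.81 for AT1G44130, and in clean air from -0.53 to 1 for AT1G44130. The interaction at 3 h ran from -1.76 to 0.97 for AT2G44240, -0.9 to 2.66 for AT3G28510 and -0.89 to 0.78 for AT1G44130. Mutant clean air at 2 d minus 3 h ran from -1.76 to 0.48 for CHI and -0.2 to 1.92 for LUP5. With 3 or 4 arrays per group and no detection calls, it is not known whether the lowest clean-air values of AT2G44240 and AT3G28510 were above background, so their fold changes may be understated or overstated.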
